A study of Mus musculus with 9 samples.

Results

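The TNF superfamily comprises ligands that act as trimers at the cell surface or after release from it, and the receptors that bind them. It was described here in 3T3 cells, a mouse fibroblast line that grows without limit. Members were the genes with a probe set annotated to a single symbol that starts with Tnfrsf or Tnfsf, or is *Tnf*, *Lta*, *Ltb*, *Ltbr*, *Fas*, *Fasl*, *Cd40*, *Cd40lg*, *Cd27*, *Cd70*, *Ngfr*, *Eda*, *Edar* or *Eda2r*. This gave 43 genes, 27 receptors and 16 ligands, of the 19938 genes that had such a probe set, and each member had 1 probe set. The 1 probe set that lists *Tnfsf12*, *Tnfsf13* and *Tnfsfm13* together was left out. Total RNA was taken from wild-type cells without stimulation (n = 3 arrays), from wild-type cells treated for 1 h with TNF-α at 5 ng/ml (n = 3), and from Trap-80 knock-down cells treated in the same way (n = 3). Trap-80 is a subunit of Mediator, the complex through which transcription factors contact RNA polymerase II. The knock-down cells stably carried a hairpin RNA against Trap-80 and the wild-type cells an irrelevant hairpin. The study describes its knock-down lines as clonal, with 1 clone per hairpin chosen for further work. It names hairpin number 1 as that of its main-text experiments. The array labels themselves do not name a hairpin or clone. No unstimulated knock-down cells are among the groups analysed, and for that reason a resting difference between the lines and an altered response to TNF-α cannot be told apart.

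Ligand binding brings receptors of this family together at the membrane. Receptors with a cytoplasmic death domain, such as Fas and TNF receptor 1, can recruit FADD and caspase-8 and start apoptosis, or recruit TRADD and RIPK1 and activate NF-κB. Most other receptors of the family bind TRAF adaptor proteins directly, and decoy receptors bind ligand without sending a signal. In fibroblasts, TNF receptor 1 is the usual receptor for soluble TNF-α, and osteoprotegerin, RANKL, Fn14 and the lymphotoxin β receptor are known products of mesenchymal cells. Many of the ligands are mainly products of activated lymphocytes and myeloid cells.

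Values are log2 signals from RMA, which puts the 9 arrays on one scale, and a difference of 1 in log2 signal is a 2-fold difference. A difference was said to pass the test where limma's p-value, adjusted by Benjamini-Hochberg over 23410 probe sets, was under 0.05. Precision is limited by there being 3 arrays in each group. The study describes 3 independent samples per group. No label sets knock-down lines apart, so the standard errors give the spread between samples and not between lines. A difference of the clone and an effect of losing Trap-80 cannot be told apart here. *Med17*, which encodes Trap-80, was at 7.98, 7.93 and 7.77 in stimulated wild-type cells and at 6.35, 6.22 and 6.17 in knock-down cells (difference -1.64, standard error 0.09, adjusted p = 4.77e-05 from limma). A two-sided exact permutation test gave p = 0.1, which is the lowest value possible with 3 against 3 arrays. Array medians lay between 4.47 and 4.59. All 8 fibroblast markers listed lay above the median probe set mean of 4.51 in each group. Of 11 measured leukocyte markers, 3 lay above it in each group, the pan-leukocyte gene *Ptprc* had group means of 3.20 to 3.24, and the mean of the list was 3.62 to 3.72 on unstimulated, 3.66 to 3.73 on stimulated wild-type and 3.59 to 3.67 on knock-down arrays. None of the leukocyte, endothelial or epithelial markers passed the test in any comparison without the replicate block described further on. With it the epithelial keratin gene *Krt8* passed between stimulated knock-down and unstimulated wild-type cells (0.69, adjusted p = 0.0188 from limma, and 0.0544 without the block). Its part in the results was not tested. In knock-down cells the fibroblast marker *Pdgfra* fell by 1.89 and *Thy1* rose by 2.09 against wild-type cells, both stimulated. Fewer cells of a type and less RNA per cell cannot be told apart in such RNA. Whether these 2 shifts have a part in the differences of family members was not tested.

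Most receptors gave signal above the middle of the array and most ligands did not. Of the 27 receptors, 16 had a mean over the 9 arrays at or above 4.51, whereas of the 16 ligands only *Tnfsf11*, which encodes RANKL, the ligand that drives osteoclast formation, did. A probe set's signal also depends on its probes, so signals of different genes are not an order of their mRNA levels. For many members RMA returned one and the same value on several arrays. *Cd27*, for example, a receptor of lymphocytes, had a single value on 8 of the 9 arrays and 2.97 on the remaining one. Such repeats occurred in 26 of the 43 members (60.5%) and in 58.9% of all tested probe sets. They were not limited to dim members, as *Ngfr*, with a mean of 5.00, had 4.99 on each unstimulated array. Apart from repeats, differences of dim members are less certain in size.

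**Figure D1:**
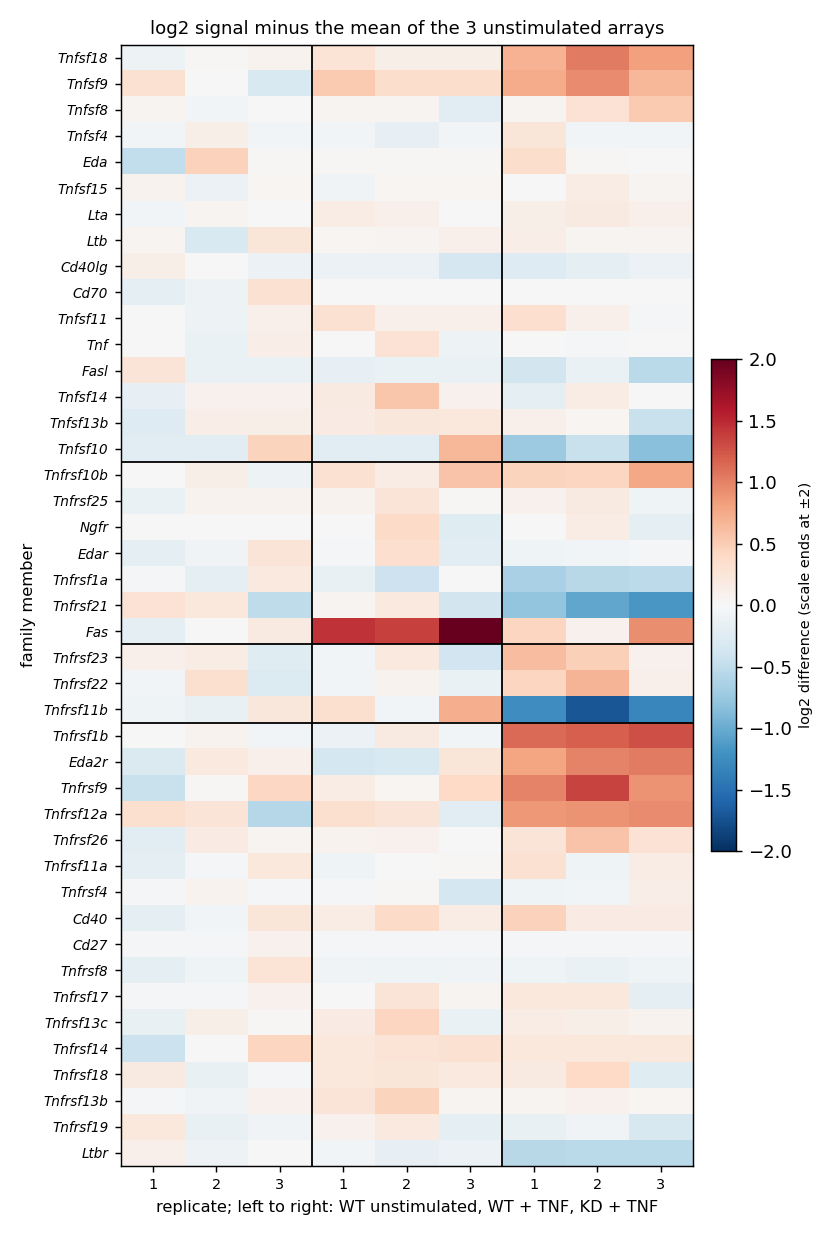
Colour gives, for each of the 43 members (rows, grouped from top to bottom as ligands, death domain receptors, decoy receptors and other receptors) and each of the 9 arrays (columns), the log2 signal minus the mean of the 3 unstimulated wild-type arrays. *Fas* is high on the 3 stimulated wild-type arrays, and on the knock-down arrays *Tnfrsf11b* and *Tnfrsf21* are low and *Tnfrsf1b*, *Tnfrsf9* and *Eda2r* high.

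The first comparison asked which members TNF-α itself altered within 1 h in wild-type cells. None of the 43 members passed the test, against 0.115% of all probe sets (0.111% higher and 0.00427% lower). *Fas* stood out in size. At an unadjusted p under 0.05, 4 members were higher (*Fas*, *Tnfsf9*, *Tnfrsf10b* and, at 0.26, *Tnfrsf13b*) and none lower, where 7.1% of all probe sets had such a p. The median difference over the members was 0.05, and over all probe sets -0.02.

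*Fas* encodes the death receptor for Fas ligand. Its log2 signal was 5.94, 6.11 and 6.30 in unstimulated wild-type cells, 7.57, 7.49 and 8.25 after TNF-α, and 6.55, 6.20 and 7.05 in stimulated knock-down cells. The stimulated wild-type arrays lay above all unstimulated and all knock-down arrays. The knock-down arrays overlapped with the unstimulated ones. The difference after TNF-α was 1.65 in log2 signal (3.14-fold, standard error 0.24, adjusted p = 0.0586 from limma). With the replicate number as a block, which compares arrays of the same number, it passed the test (adjusted p = 0.00211), as did 0.235% of all probe sets. The differences within numbers 1, 2 and 3 were 1.62, 1.38 and 1.95. *Fas* also passed after a second quantile normalization (adjusted p = 0.0277), among probe sets above 4.51 only (0.0315), with a mean-variance trend in limma (0.039) and without knock-down array 3 (0.0453). It missed the threshold with median-centred arrays (0.0524), with all deposited probe sets tested (0.152) and in a model of the 6 arrays compared (0.162), and its adjusted p was up to 0.309 without 1 array at a time.

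The gene of its ligand, *Fasl*, was at 3.07, 2.68 and 2.68 before and 2.64, 2.68 and 2.68 after TNF-α (difference -0.14, 95% interval -0.44 to 0.15, adjusted p = 0.82). *Tnf* itself, the gene for the stimulating cytokine, was at 4.24, 4.10 and 4.38 in unstimulated cells, at 4.25, 4.53 and 4.13 after TNF-α, and at 4.24, 4.21 and 4.24 in knock-down cells. The 3 groups overlapped, and the difference after TNF-α was 0.07 (95% interval -0.18 to 0.31, adjusted p = 0.91). *Lta* and *Ltb* encode lymphotoxins α and β and neighbour *Tnf* in the genome (RefSeq, GRCm38.p6). *Lta* lay between 3.54 and 3.77 on the 9 arrays and *Ltb* between 3.98 and 4.53. Their TNF-α differences were 0.08 (adjusted p = 0.81) and 0.07 (adjusted p = 0.91).

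*Tnfsf9* and *Tnfrsf10b* followed *Fas* among the higher members, without passing the test. *Tnfsf9*, the ligand of the costimulatory receptor 4-1BB, was at 3.84, 3.55 and 3.24 before and at 4.06, 3.90 and 3.90 after TNF-α (difference 0.41, standard error 0.14, adjusted p = 0.66). *Tnfrsf10b*, the death receptor for TRAIL, was at 7.16, 7.30 and 7.07 before and at 7.48, 7.33 and 7.75 after it (difference 0.34, standard error 0.13, adjusted p = 0.67). In both genes the 2 groups did not overlap, which was also so for *Fas*, *Tnfrsf18*, *Tnfsf13b* and *Tnfsf18*, 6 members in all, and for 10.2% of all probe sets. *Tnfrsf1a*, TNF receptor 1, differed by -0.19 (95% interval -0.46 to 0.09) and *Tnfrsf1b*, TNF receptor 2, by 0.01 (95% interval -0.20 to 0.21).

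NF-κB binds promoters at κB sites, and the proximal promoter sequences of members were read from RefSeq (GRCm38.p6, 250 bases before to 50 after the gene start). A κB motif, GGGNNNTTCC on either strand with N for any base, was searched in the 38 windows of the 34 members that the table holds. It occurred in 4 windows (10.5%), against 5.56% of the 32851 windows of all genes. A match is a run of letters and does not show binding. The 4 matches are shown to set the members with such a site against the expression values, with the match in capitals, 10 bases on either side, and the gene's strand read 5′ to 3′.
*Tnfrsf9* (chr4:150927946-150927975, plus strand): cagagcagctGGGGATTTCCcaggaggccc
*Ltb* (chr17:35194410-35194439, plus strand, match on the opposite strand): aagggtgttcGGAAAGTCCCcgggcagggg
*Tnfrsf25* (chr4:152115706-152115735, plus strand, match on the opposite strand): tgagacccagGGAAAAGCCCctggctctgg
*Eda2r* (chrX:97377390-97377419, minus strand): atctaactttGGGCCCTTCCctccctagac

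None of these 4 genes passed the test after TNF-α. Their differences were 0.20 for *Tnfrsf9*, 0.07 for *Ltb*, 0.12 for *Tnfrsf25* and -0.14 for *Eda2r*. The match in *Tnfrsf9* lies in 1 of its 2 windows, 43 to 34 bases before the gene start of that window, and the other window holds none. The whole window is printed because *Tnfrsf9* was among the members that differed in the knock-down (described further on), with the match in capitals.
*Tnfrsf9* promoter (chr4:150927749-150928048, plus strand): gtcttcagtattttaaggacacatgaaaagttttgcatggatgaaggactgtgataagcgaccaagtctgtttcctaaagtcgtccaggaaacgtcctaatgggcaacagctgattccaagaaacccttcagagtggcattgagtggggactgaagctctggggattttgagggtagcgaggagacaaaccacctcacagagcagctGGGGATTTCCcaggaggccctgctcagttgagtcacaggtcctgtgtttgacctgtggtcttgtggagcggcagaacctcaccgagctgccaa
The window of *Fas* is printed as that of the member with the largest TNF-α difference, and holds no match to this motif, which says only that these letters are not within its 300 bases.
*Fas* promoter (chr19:34290409-34290708, plus strand): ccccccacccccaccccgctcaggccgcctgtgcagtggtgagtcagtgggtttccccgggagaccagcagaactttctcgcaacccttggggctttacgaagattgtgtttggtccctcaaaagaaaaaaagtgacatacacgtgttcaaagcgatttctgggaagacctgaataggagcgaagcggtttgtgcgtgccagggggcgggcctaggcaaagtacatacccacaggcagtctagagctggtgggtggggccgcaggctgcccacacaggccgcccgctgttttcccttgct

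**Figure D2:**
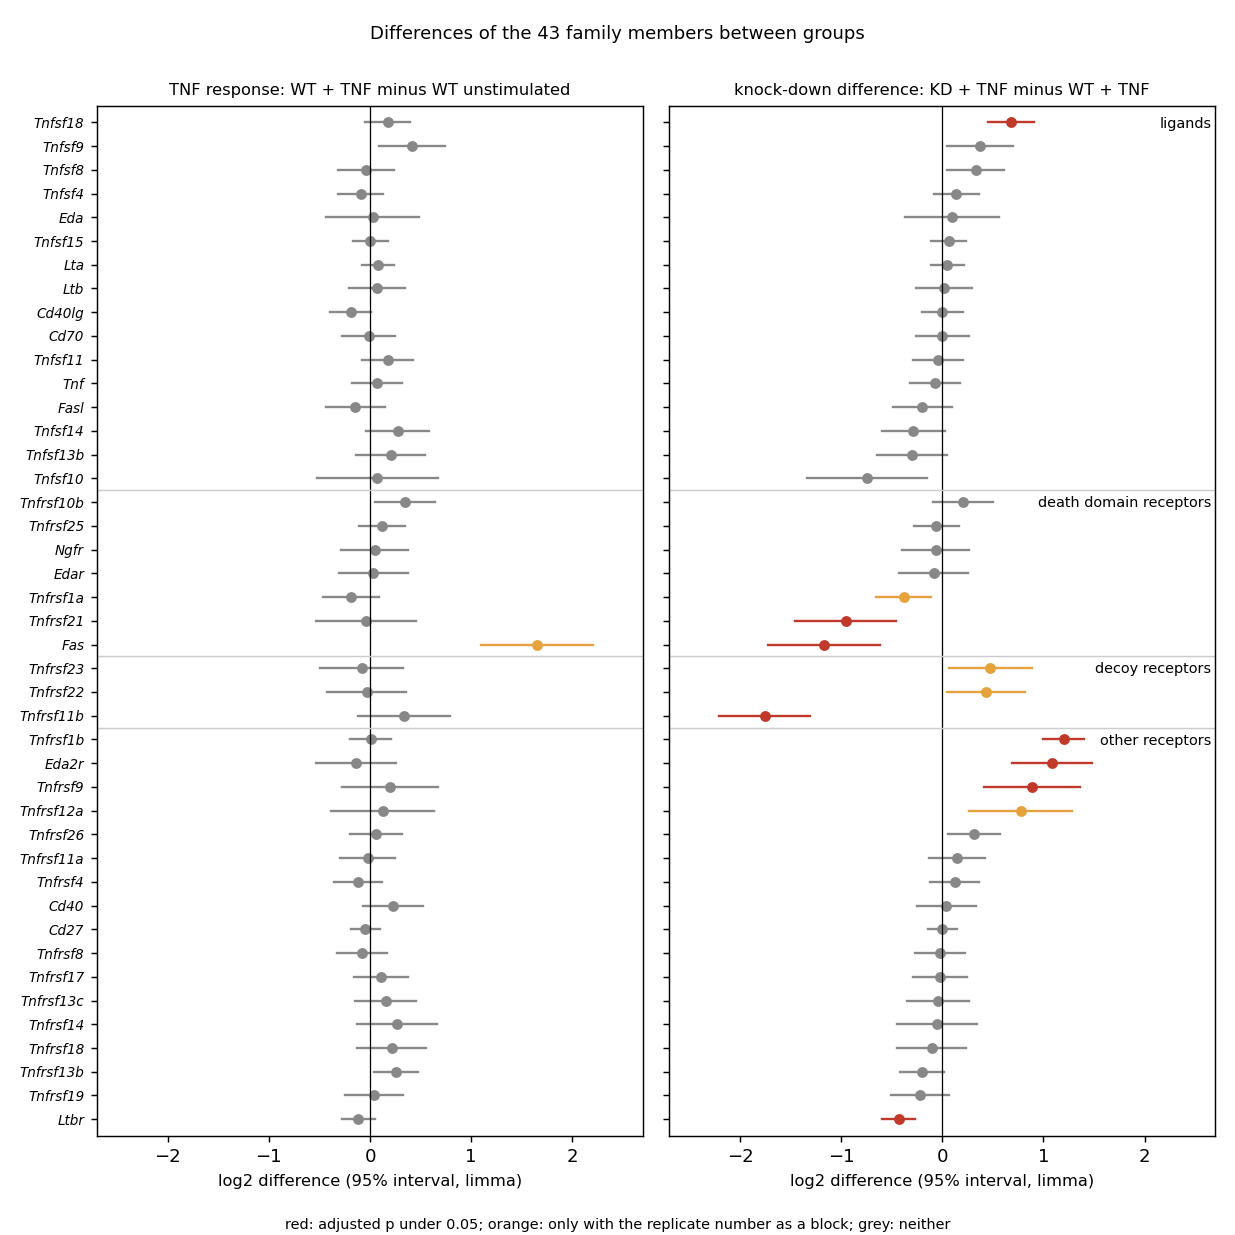
Each point is the log2 difference of 1 member, with its 95% interval from limma, for TNF-α in wild-type cells (left) and for the knock-down against wild type, both with TNF-α (right). Members are grouped by role and ordered within a role by the knock-down difference. On the left *Fas* alone lies beyond 1 (1.65), while on the right the differences run from -1.76 for *Tnfrsf11b* to 1.20 for *Tnfrsf1b*.

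The second comparison asked how the members differed between stimulated Trap-80 knock-down and stimulated wild-type cells. In the knock-down, the decoy receptor *Tnfrsf11b*, the death domain receptors *Fas* and *Tnfrsf21* and the lymphotoxin receptor *Ltbr* fell. The receptors *Tnfrsf1b*, *Eda2r* and *Tnfrsf9* and the ligand *Tnfsf18* rose. These were 8 of 43 members (18.6%), against 5.96% of all probe sets, with 4 higher and 4 lower (3.36% and 2.6% of all probe sets). The median difference over the members was 0.00 and over all probe sets -0.02, and the median absolute difference was 0.20 and 0.11. Of the 17 members at or above 4.51, 6 passed, and of the 26 below it, 2 did (*Eda2r* and *Tnfsf18*). The shares of all probe sets above and below 4.51 that passed were not counted, so this split is not a result about the members. At an unadjusted p under 0.05 there were 16 members (17.4% of all probe sets), and 15 members had no overlap between the 2 groups (20.9% of all probe sets).

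Of the receptors for TNF-α, 1 rose in the knock-down and the other had a lower signal there. *Tnfrsf1b*, TNF receptor 2, which binds TRAF2 and has no death domain, was at 6.23, 6.52 and 6.30 in stimulated wild-type and at 7.47, 7.54 and 7.64 in knock-down cells. Unstimulated wild-type cells gave 6.33, 6.41 and 6.29, so all 3 knock-down arrays lay above all 6 wild-type arrays. It rose by 1.20 (2.30-fold, standard error 0.09, adjusted p = 0.000193 from limma), the smallest adjusted p among the members. *Tnfrsf1a*, TNF receptor 1, which carries a death domain, was at 9.65, 9.40 and 9.81 in stimulated wild-type and at 9.16, 9.26 and 9.29 in knock-down cells. The knock-down arrays lay below all wild-type arrays. Its difference was -0.38 (standard error 0.12, adjusted p = 0.12), and it passed with the replicate number as a block (adjusted p = 0.0403). It missed the threshold with median-centred arrays (0.224), with all deposited probe sets tested (0.217) and in a model of the 6 arrays compared (0.136). Without 1 array at a time its adjusted p was 0.065 to 0.301.

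Among the death domain receptors, *Fas* fell. Its knock-down difference was -1.17 (44.4% of the stimulated wild-type signal, standard error 0.24, adjusted p = 0.0237), and within the 3 numbers it was -1.02, -1.29 and -1.20. The study put *Fas*, like *Tnfaip3*, *Ch25h* and *Adm* named further on, on a list of Trap-80-dependent genes chosen from these same arrays, so their direction here is not independent evidence. *Tnfrsf21* encodes death receptor 6, and was at 6.05, 6.20 and 5.63 in stimulated wild-type and at 5.21, 4.97 and 4.84 in knock-down cells. It fell by 0.96 on the log2 scale (standard error 0.22, adjusted p = 0.0365), and the groups did not overlap. In each wild-type group array 3 was the highest for *Fas* and the lowest for *Tnfrsf21*. The other 4 death domain receptors did not pass the test, with or without the block. *Tnfrsf10b* differed by 0.20, *Tnfrsf25*, death receptor 3, by -0.06, *Ngfr*, the low-affinity neurotrophin receptor, by -0.06, and *Edar*, the ectodysplasin receptor of skin appendages, by -0.09.

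The decoy receptor *Tnfrsf11b* had the largest difference of the family. It encodes osteoprotegerin, a secreted receptor that binds RANKL and TRAIL and keeps RANKL from its receptor. Its signal was 8.25, 8.18 and 8.55 in unstimulated cells, 8.66, 8.28 and 9.05 in stimulated wild-type cells and 7.09, 6.62 and 7.02 in knock-down cells. Every knock-down array lay more than 1 unit below every wild-type array. It fell by 1.76 (29.6% of the stimulated wild-type signal, standard error 0.20, adjusted p = 0.00135). The genes of its ligands and of the signalling receptor did not pass. *Tnfsf11*, RANKL, differed by -0.04 (95% interval -0.29 to 0.20) and *Tnfrsf11a*, RANK, by 0.15 (95% interval -0.13 to 0.42). *Tnfsf10*, TRAIL, was dim, at 2.97, 2.97 and 3.87 in stimulated wild-type and 2.48, 2.75 and 2.36 in knock-down cells, and differed by -0.75 (adjusted p = 0.17).

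*Tnfrsf22* and *Tnfrsf23*, mouse decoy receptors for TRAIL, lay higher in the knock-down. In the genome *Tnfrsf22* stands between *Tnfrsf26* and *Tnfrsf23* (GRCm38.p6). *Tnfrsf22* was at 5.79, 5.91 and 5.71 in stimulated wild-type and at 6.26, 6.51 and 5.94 in knock-down cells. *Tnfrsf23* was at 7.11, 7.37 and 6.78 and at 7.78, 7.64 and 7.26, where the groups overlapped. *Tnfrsf26* was at 3.23, 3.25 and 3.17 and at 3.42, 3.73 and 3.44. The differences were 0.43, 0.47 and 0.315, and none of them passed the test without the block (adjusted p = 0.22, 0.21 and 0.18). With the block *Tnfrsf22* and *Tnfrsf23* passed (adjusted p = 0.0255 and 0.0144), as *Tnfrsf12a* and *Tnfrsf1a* did, which brought the members that passed to 7 higher and 5 lower (4.94% and 4.07% of all probe sets). *Tnfrsf22* and *Tnfrsf23* are close relatives in sequence, and how far their probes share targets was not tested.

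Among the remaining receptors, which mostly signal through TRAF proteins, *Eda2r* and *Tnfrsf9* rose and *Ltbr* fell. *Eda2r* encodes the receptor for the A2 form of ectodysplasin. It was at 3.95, 4.43 and 4.33 in unstimulated, 3.88, 3.93 and 4.48 in stimulated wild-type and 5.03, 5.23 and 5.27 in knock-down cells. The 3 knock-down arrays lay above the 6 wild-type arrays. It rose by 1.08 (2.12-fold, standard error 0.18, adjusted p = 0.00729) from a dim wild-type signal, so the size is less certain. Its ligand gene *Eda* differed by 0.10 (95% interval -0.36 to 0.56).

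*Tnfrsf9* encodes 4-1BB, a costimulatory receptor best known from T cells. Its signal was 4.41, 4.88 and 5.27 in unstimulated, 5.00, 4.89 and 5.26 in stimulated wild-type and 5.84, 6.21 and 5.75 in knock-down cells. The knock-down arrays again lay above all wild-type arrays. It rose by 0.88 (1.84-fold, standard error 0.21, adjusted p = 0.0414). The κB match printed above lies in its promoter window. Of the measured T cell markers, *Cd3e* differed by -0.09, *Cd4* by -0.01 and *Cd8a* by -0.06 in the same comparison. The B cell markers *Cd79a* and *Ms4a1* differed by -0.03 and -0.01. *Cd3e* had group means of 4.64 to 4.76, above 4.51. Its ligand gene *Tnfsf9* was at 4.28, 4.49 and 4.21 in knock-down cells, above the stimulated wild-type arrays, with a difference of 0.37 (standard error 0.14, adjusted p = 0.21).

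*Ltbr* encodes the lymphotoxin β receptor, which activates the alternative NF-κB pathway in stromal cells. Its 3 knock-down arrays were close together at 7.71, 7.72 and 7.72, against 8.202, 8.09 and 8.14 in stimulated and 8.37, 8.16 and 8.25 in unstimulated wild-type cells. It fell by 0.43 on the log2 scale (74.2% of the wild-type signal, standard error 0.07, adjusted p = 0.00864). This was the smallest difference among the 8 members that passed. Its ligand genes *Ltb* and *Tnfsf14* (LIGHT) differed by 0.02 and -0.29 and did not pass.

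*Tnfrsf12a* encodes Fn14, the receptor for TWEAK, and was at 8.98, 8.91 and 8.45 in stimulated wild-type and at 9.52, 9.55 and 9.59 in knock-down cells. The groups did not overlap, and wild-type array 3 was the lowest in both wild-type groups (8.09 without TNF-α). The difference was 0.78 (standard error 0.22, adjusted p = 0.0887). It passed with the block (adjusted p = 0.0272), in a model of the 6 arrays compared (0.0366) and without unstimulated array 3 (0.0116). It missed the threshold with median-centred arrays, with a second quantile normalization and with all deposited probe sets tested. Leaving out any other single array also left it above the threshold (adjusted p up to 0.225). The other 11 receptors of this role group, without *Tnfrsf1b*, *Tnfrsf26* and those just described, differed by -0.22 to 0.15. They are *Cd27*, *Cd40*, *Tnfrsf4* (OX40), *Tnfrsf8* (CD30), *Tnfrsf11a*, *Tnfrsf13b* (TACI), *Tnfrsf13c* (BAFF receptor), *Tnfrsf14* (HVEM), *Tnfrsf17* (BCMA), *Tnfrsf18* (GITR) and *Tnfrsf19* (TROY), and none passed with or without the block.

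Of the 16 ligands, *Tnfsf18* alone passed. It encodes the ligand of GITR, and was at 2.76, 2.89 and 2.92 in unstimulated, 3.14, 2.98 and 2.98 in stimulated wild-type and 3.55, 3.90 and 3.68 in knock-down cells. The knock-down arrays lay above all wild-type arrays. It rose by 0.68 (1.603-fold, standard error 0.10, adjusted p = 0.00444), but all its values lay below 4.51, so the size is less certain. Its genomic neighbours *Tnfsf4* (OX40 ligand) and *Fasl* differed by 0.14 and -0.20, and its receptor gene *Tnfrsf18* by -0.11. The other ligands ran from -0.75 for *Tnfsf10* to 0.37 for *Tnfsf9*. *Tnf*, *Lta*, *Cd70*, *Cd40lg*, *Tnfsf4*, *Tnfsf11*, *Tnfsf15* (TL1A) and *Eda* differed by -0.07 to 0.14, *Tnfsf13b* (BAFF) by -0.30 and *Tnfsf8* (CD30 ligand) by 0.33.

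**Figure D3:**
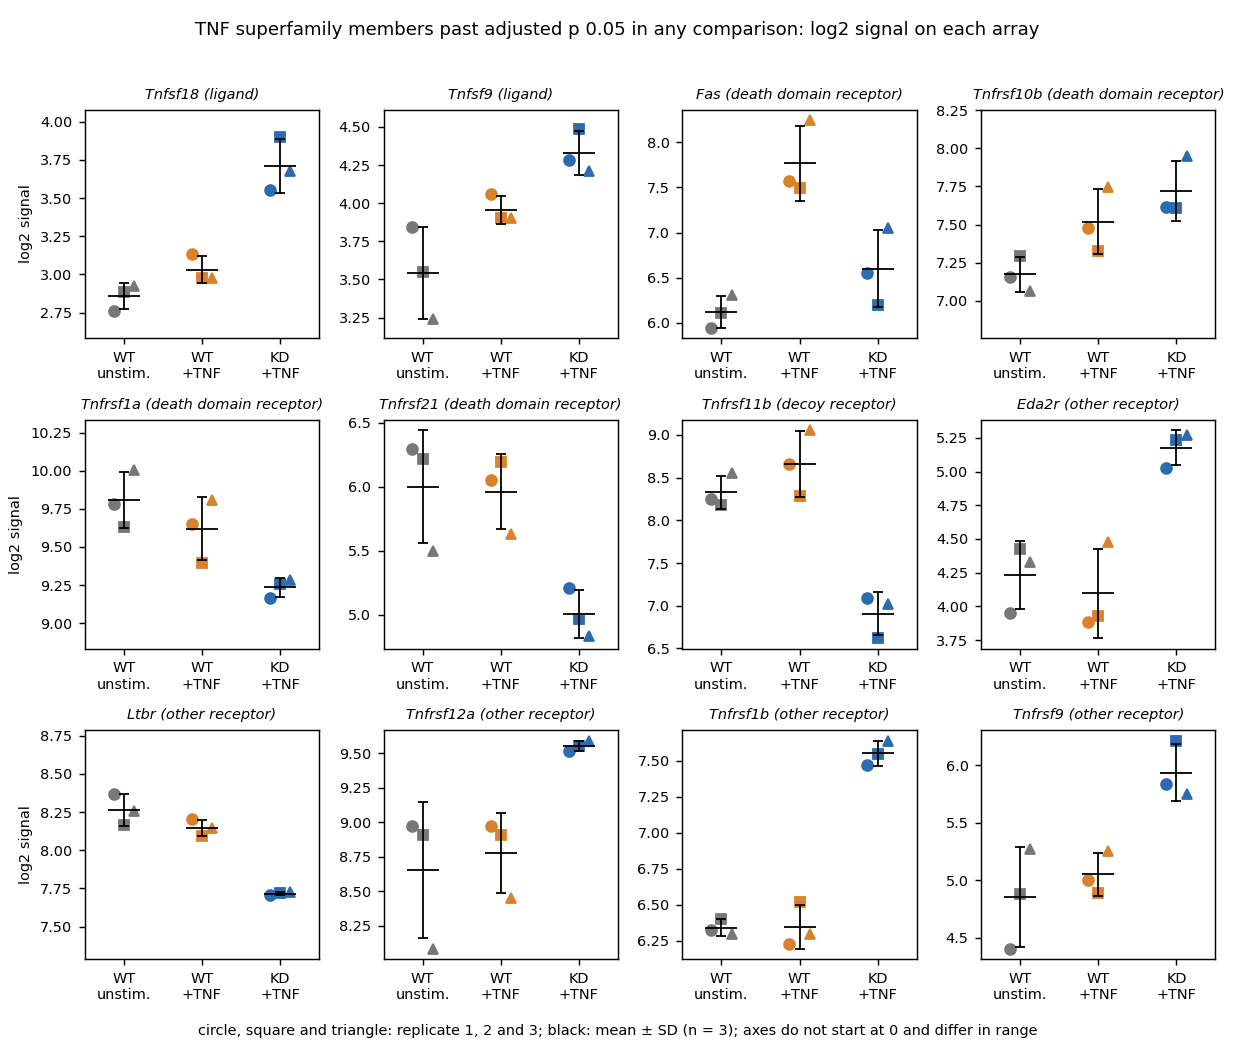
The 12 members that passed the test in any of the 3 comparisons are plotted by array, with log2 signal on the vertical axis and the 3 groups on the horizontal axis; points are arrays, shaped by replicate number, and black bars are the mean ± SD (n = 3). *Tnfrsf1b*, *Eda2r*, *Tnfrsf9*, *Tnfrsf12a* and *Tnfsf18* are high and *Tnfrsf11b*, *Tnfrsf21* and *Ltbr* low on the knock-down arrays against both wild-type groups, whereas *Fas* is high on the stimulated wild-type arrays.

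The calls differed in how far they rested on single arrays. *Tnfrsf1b*, *Tnfrsf11b*, *Ltbr*, *Eda2r* and *Tnfsf18* passed whichever of the 9 arrays was left out. *Fas* missed the threshold without stimulated wild-type array 1 or 3 (adjusted p = 0.0559 and 0.0536) or knock-down array 1 or 2 (0.0828 and 0.0842). *Tnfrsf21* missed it without unstimulated array 2 (0.0531), stimulated wild-type array 1 or 2 (0.132 and 0.136) or knock-down array 1, 2 or 3 (0.0667, 0.115 and 0.135). *Tnfrsf9* missed it without unstimulated array 2 (0.0708), any stimulated wild-type array (0.137, 0.148 and 0.0552) or any knock-down array (0.0954, 0.143 and 0.0777). The number that fell was 2 without stimulated wild-type array 1 or knock-down array 1 or 2. With all deposited probe sets tested, *Fas* (0.0615), *Tnfrsf21* (0.0877) and *Tnfrsf9* (0.0969) missed it too, and in a model of the 6 arrays compared *Fas* did (0.0788).

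The third comparison set stimulated knock-down cells against unstimulated wild-type cells, and shares its arrays with the other two. It gives each member's net level after knock-down and stimulation. In it 11 of the 43 members passed (25.6%, against 8.25% of all probe sets), 7 higher and 4 lower (3.64% and 4.62% of all probe sets). *Tnfrsf1b* (1.21), *Tnfrsf9* (1.08), *Eda2r* (0.94), *Tnfrsf12a* (0.90), *Tnfsf18* (0.86), *Tnfsf9* (0.78) and *Tnfrsf10b* (0.55) rose. *Tnfrsf11b* (-1.42), *Tnfrsf21* (-0.995), *Tnfrsf1a* (-0.57) and *Ltbr* (-0.55) fell. Their adjusted p-values from limma ran from 0.000163 for *Tnfrsf1b* to 0.0402 for *Tnfrsf12a*.

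At an unadjusted p under 0.05, *Fasl* (-0.34), *Tnfsf10* (-0.67), *Tnfsf8* (0.29), *Tnfrsf22* (0.40) and *Tnfrsf26* (0.37) also differed, without passing the test. *Fas* had no call here. Its stimulated knock-down level differed from the unstimulated wild-type level by 0.48 (95% interval -0.07 to 1.03, adjusted p = 0.32). A member's difference here is the sum of its differences in the other comparisons, so it is not a separate result. *Tnfsf9* and *Tnfrsf10b* had differences of 0.41 and 0.34 after TNF-α and of 0.37 and 0.20 in the knock-down. They passed only in the third comparison (adjusted p = 0.0102 and 0.0339), and the stimulated groups of *Tnfrsf10b* overlapped. *Tnfrsf1a* had differences of -0.19 and -0.38, and fell in the third comparison (adjusted p = 0.0208). Calls of *Tnfrsf10b*, *Tnfrsf12a*, *Tnfrsf1a* and *Tnfrsf21* were lost on leaving out several single arrays (highest adjusted p 0.108, 0.117, 0.0806 and 0.0992), and that of *Tnfrsf9* without knock-down array 2 (0.0541). With all deposited probe sets tested, *Tnfrsf10b* (0.0703), *Tnfrsf12a* (0.0837) and *Tnfrsf21* (0.0564) did not pass, nor did *Tnfrsf12a* (0.08) and *Tnfrsf21* (0.0531) in a model of the 6 arrays compared. Without knock-down array 2, 4 members rose and 2 fell, and 2 fell without unstimulated array 1 or knock-down array 3.

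The genes that act next to these receptors were taken as a list of 32 genes for adaptors, kinases, proteases, ubiquitin enzymes, regulators of cell death and NF-κB subunits, of which 29 were measured. After TNF-α, *Tnfaip3*, the deubiquitinase A20 that ends TNF receptor signalling, rose by 4.504 (adjusted p = 1.08e-05) and *Relb*, the NF-κB subunit of the alternative pathway, by 0.94 (adjusted p = 0.0485), and none fell, where 0.111% of all probe sets were higher and 0.00427% lower. Without any 1 of the arrays other than stimulated wild-type array 2, only 1 gene of the list passed. With the block *Birc3*, the ubiquitin ligase cIAP2, and *Nfkb2*, the precursor of p52, also passed, at 1.42 and 0.71 (adjusted p = 0.00958 and 0.0121), which made 4 of 29, against 0.235% of all probe sets. The list's median difference was 0.01.

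In the knock-down, 3 of the 29 rose and 3 fell, against 3.36% and 2.6% of all probe sets. *Cflar*, the caspase-8 inhibitor c-FLIP, rose by 0.69 (adjusted p = 0.00451), *Map3k7*, the kinase TAK1, by 0.51 (adjusted p = 0.0068) and *Traf4*, an adaptor, by 0.43 (adjusted p = 0.0288). *Tnfaip3* fell by 1.13 (adjusted p = 0.00466), *Map3k5*, the kinase ASK1, by 0.60 (adjusted p = 0.0120) and *Rbck1*, the HOIL-1 subunit of the linear ubiquitin ligase, by 0.57 (adjusted p = 0.0126). The list's median was 0.11. The adaptors of death domain receptors did not pass, with *Fadd* at 0.26 (adjusted p = 0.14), *Tradd* at -0.19 (adjusted p = 0.49) and *Edaradd* at -0.08 (adjusted p = 0.83). Nor did *Casp8*, which encodes caspase-8, at 0.37 (adjusted p = 0.18). *Traf1*, an adaptor bound to TNF receptor 2, differed by 0.54 (adjusted p = 0.0766), and passed with the block (0.0363). *Relb*, *Birc3* and *Nfkb2* differed by -0.23, 0.00 and -0.05 and did not pass. In stimulated knock-down against unstimulated wild-type cells, 9 of the 29 were higher and 2 lower (3.64% and 4.62% of all probe sets). There *Tnfaip3* was higher by 3.37 (adjusted p = 1.85e-05 from limma).

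*Fas* was the member whose smaller difference in the first 2 comparisons was the largest in size, and the genes outside the family with the most similar signals were sought for it. Over the 9 arrays and among 19895 genes, *Ch25h*, cholesterol 25-hydroxylase (Pearson's r = 0.98), *Adm*, the peptide adrenomedullin (r = 0.94), and *Sdc4*, the cell-surface proteoglycan syndecan-4 (r = 0.94), came closest. The 9 arrays fall into 3 groups, so these values mainly describe group means. *Adm* was at 8.25 ± 0.24 (SD, n = 3) without and 9.54 ± 0.37 with TNF-α in wild-type cells and at 8.54 ± 0.34 in stimulated knock-down cells. The corresponding means of *Sdc4* were 10.52 ± 0.04, 11.01 ± 0.20 and 10.75 ± 0.05.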

How the data were processed

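Total RNA of 9 samples was hybridised to Affymetrix Mouse Gene 1.0 ST arrays, 1 array per sample and 3 per group. The authors deposited log2 signals per probe set after RMA (background correction, quantile normalization and summary over probes), of a version not given in the sources used here. Groups came from the sample labels. Of 35557 deposited probe sets, 23410 had at least 1 gene in GEO's platform annotation (21789 with a single symbol, 1621 with several), and these were tested. The brightest single-symbol probe set stood for a gene. A model of the 3 groups was fitted with limma 3.58.1 (R 4.3.3), with Benjamini-Hochberg adjustment over all tested probe sets and a threshold of 0.05. The script was tested on simulated data.

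The members, the signalling list and the marker lists were chosen with earlier results of these data known. Array values are given for members past the threshold in any comparison, with or without the replicate block, and for *Tnfrsf1a*, *Tnfrsf1b*, *Tnf*, *Lta* and *Ltb*. Members with an unadjusted p under 0.05 are named with their difference, and the rest by ranges. Arrays with the same replicate number deviated together from their group means, with correlations over probe sets of 0.298, 0.110 and 0.403 between the wild-type groups and 0.147, 0.274 and 0.465 between the stimulated groups. Arrays numbered 1 and 2 also correlated across numbers, at up to 0.249 and 0.160. What the numbers mark is not stated. A fit with the number as a block was therefore given where it changed a call. Alternatives were other scalings, filters, variance priors, the filter of the study's methods (unadjusted p under 0.1 and SD of the change under 0.5 of its mean) and leaving out each array.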

Additional observations from a re-analysis of the deposited data

How the results depend on the processing

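No value past the threshold changed sign under any alternative run. Of differences that had not passed, 2 changed sign under settings other than leaving out an array (*Tnfrsf1b* and *Tnfrsf26* after TNF-α, with median centring), as 20 did on leaving out an array, among them *Tnfrsf12a* (-0.16 to 0.29) and *Tnfrsf21* (-0.29 to 0.12) after TNF-α. With the replicate number as a block, 1 member (*Fas*) and 4 signalling genes were higher after TNF-α, and 7 members were higher in the knock-down. The correlations of same-numbered arrays of stimulated knock-down and unstimulated cells were 0.151, 0.002 and 0.22. Arrays of different numbers in these groups correlated at -0.2285 to 0.161, so how far the numbers pair them is unclear. The block added *Tnfrsf22*, *Tnfrsf23* and *Tnfrsf26* to that comparison's calls. After TNF-α, the number of higher members was 1 with a second quantile normalization, with only probe sets above the median mean and with a trended, robust variance prior, and 2 with the filter of the methods. The number of higher signalling genes was 1 with median-centred arrays, with all 35557 probe sets tested and with only the 6 arrays compared, and 4 (with 2 lower) with the filter of the methods. In the knock-down, 2 members were lower with all probe sets tested and 7 with the filter of the methods, which also gave 5 higher signalling genes. That filter takes an unadjusted p under 0.1, so its counts are not comparable with the others. Shares of all probe sets were counted for the main fit and the block only. Counts under the other alternatives, or without an array, therefore cannot be set against a background. Restriction to probe sets above the median mean kept 17 members, of which 2 were higher in the knock-down and 4 higher against unstimulated cells, and moved the median differences to 0.1244, -0.0422 and 0.2137 in the order of the comparisons. Median centring moved the median to -0.0009 after TNF-α and 0.0573 in the knock-down, where a second quantile normalization gave 0.0215. Apart from the block, the cause was not tested where the construction does not show it.

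Leaving out 1 array at a time gave 0 to 1 higher members and 1 to 2 higher signalling genes after TNF-α (median over the members 0.0128 to 0.1237). In the knock-down it gave 3 to 5 higher and 2 to 4 lower members, 2 to 4 higher and 2 to 3 lower signalling genes and a median of -0.0292 to 0.0515. Against unstimulated cells it gave 4 to 7 higher and 2 to 4 lower members, 5 to 9 higher signalling genes and a median of 0.032 to 0.1216. The *Med17* difference stayed between -1.70 and -1.60. Taking the mean of all probe sets of a symbol altered no member, since each has 1. Single genes were tallied for the members that passed in any comparison, with or without the block, and for *Tnf*, *Lta* and *Ltb*. Apart from leaving out arrays, 390 of their values kept their side of the threshold, 12 newly passed and 9 no longer passed. The 390 include the values from the mean of all probe sets, which could not change. The median standard error of a difference over all tested probe sets was 0.105, so small differences could be missed here.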
